A study of Mus musculus with 4 samples.

Results

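Transcripts of retinoid handling, 9 of the 20094 genes in the deposited table, were followed through the cells of the mouse retina after photobleaching. They were chosen by name, as genes of the visual cycle and its retinol dehydrogenases. The rule used no measured value, but earlier results of these data were known when it was set. They are Abca4, Rdh8, Rdh12, Rdh11, Rdh14, Rdh10, Dhrs3, Rlbp1 and Rbp3, and all 9 were in the table. The strain of all groups was Abca4-/-Rdh8-/- with C57BL/6J as background, at 6 weeks of age, so Abca4 and Rdh8 carry the deletions in every group, controls included. In the rolipram group, mice received rolipram (2 mg/kg), which inhibits phosphodiesterase 4, in DMSO, 30 min before white light of 10000 lux for 30 min. In the BC11-38 group, mice received BC11-38 (2 mg/kg), which inhibits phosphodiesterase 11, in the same way. The bleached vehicle group had DMSO and the same light, and retinae of the 3 bleached groups were taken 1 day later. The unbleached vehicle group had DMSO and no bleaching light. The 24 h of dark adaptation and the 1% tropicamide are described for light exposure, and the labels do not record them for the unbleached group. Each group was 1 single-cell library from 4 retinae of 2 pooled mice, so values have no replicate and no test across samples was possible.

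Vision begins when light turns the 11-cis-retinal bound to an opsin into all-trans-retinal. ABCA4 moves the freed all-trans-retinal out of the outer segment disc, and the dehydrogenases RDH8 and RDH12 reduce it to all-trans-retinol, which RBP3 (also called IRBP) carries across the space between photoreceptors and the pigment epithelium. RLBP1 (also called CRALBP) binds 11-cis-retinoids in the pigment epithelium and in Müller glia, the main supporting glia of the retina, where a second route is thought to serve cones. Mice without ABCA4 and RDH8 clear all-trans-retinal slowly and lose photoreceptors after bright light.

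The members lie on 7 chromosomes of GRCm38 in the GENCODE M21 annotation, and all are protein-coding. Abca4 is at chr3:122044443-122180123, Rdh8 at chr9:20818503-20826117, Rdh14 at chr12:10390772-10395562, Rdh10 at chr1:16105774-16133734, Dhrs3 at chr4:144892827-144928209 and Rbp3 at chr14:33954003-33964216, all on the plus strand. Rlbp1 is at chr7:79374870-79387048 on the minus strand. Rdh11 (chr12:79174337-79192293, minus strand) and Rdh12 (chr12:79208914-79222665, plus strand) are neighbours that point away from each other with 16.6 kb between them. Abca4 overlaps 2 pseudogenes on the opposite strand, and neither of them is in the table.

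Promoters are shown for 4 members, those of the 2 members that held the letters bound by the photoreceptor factors CRX and OTX2 and those of Rdh12 and Rlbp1, the rod and the glial member with the clearest differences between libraries. RefSeq on GRCm38.p6 gave 11 promoter windows for 8 of the 9 members, each running from 250 bases before to 50 bases after a start. TAATCC and its reverse complement GGATTA were searched on both strands. The letters were found once in the Abca4 window, 58 bases upstream of the start, and once in the Rbp3 window, 69 bases upstream, both times on the strand opposite to the gene. Of all 32851 RefSeq windows of 300 bases, 2320, or 7.06%, held them. A match describes the letters and not a site in use. The 250 bases upstream of each start follow, 5′ to 3′ on the strand of the gene, with the match in capitals, for Abca4 (chr3:122044210-122044459, plus), Rbp3 (chr14:33953753-33954002, plus), Rdh12 (chr12:79208663-79208912, plus) and Rlbp1 (chr7:79387028-79387277, minus).
Abca4: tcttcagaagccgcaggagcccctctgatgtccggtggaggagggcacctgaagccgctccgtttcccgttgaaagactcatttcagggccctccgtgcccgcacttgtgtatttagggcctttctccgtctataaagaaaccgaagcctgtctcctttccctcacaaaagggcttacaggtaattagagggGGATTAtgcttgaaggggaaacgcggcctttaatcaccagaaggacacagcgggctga
Rbp3: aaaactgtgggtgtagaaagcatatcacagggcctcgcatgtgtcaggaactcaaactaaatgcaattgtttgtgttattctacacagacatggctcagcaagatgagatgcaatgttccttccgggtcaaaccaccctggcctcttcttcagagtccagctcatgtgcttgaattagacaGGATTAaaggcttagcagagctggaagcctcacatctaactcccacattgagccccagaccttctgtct
Rdh12: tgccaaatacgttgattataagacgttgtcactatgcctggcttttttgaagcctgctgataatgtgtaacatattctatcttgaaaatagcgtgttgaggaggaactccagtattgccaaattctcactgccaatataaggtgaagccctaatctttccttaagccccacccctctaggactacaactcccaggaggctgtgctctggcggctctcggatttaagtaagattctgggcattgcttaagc
Rlbp1: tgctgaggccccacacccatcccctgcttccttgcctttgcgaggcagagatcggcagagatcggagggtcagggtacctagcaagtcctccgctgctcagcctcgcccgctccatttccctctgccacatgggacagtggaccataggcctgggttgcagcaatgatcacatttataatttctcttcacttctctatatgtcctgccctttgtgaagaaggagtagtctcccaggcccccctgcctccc

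The libraries held 7894 cells (rolipram), 6143 (BC11-38), 6809 (bleached vehicle) and 5697 (unbleached vehicle), with 28983626 to 44386442 unique molecules (UMIs) each. Cells were clustered without the 9 members and without 52 further listed retinoid genes, and classes were named from marker lists. The libraries differed in sex. Xist was seen in 51.6% of rolipram, 48.8% of BC11-38, 0.176% of bleached vehicle and 48.1% of unbleached vehicle cells. The bleached vehicle library therefore stands apart in every comparison below, and values in male cells, those with Y-linked UMIs that lacked Xist, are given where they change a call. Barcodes shared between libraries numbered 92, in 184 cells, and leaving those cells out changed no count of members by over 1.5 times. Rods numbered 2637, 2305, 2488 and 2380 in the rolipram, BC11-38, bleached vehicle and unbleached vehicle libraries, cones 397, 363, 299 and 261, and Müller glia 1193, 600, 1407 and 586. In each library none of the 12 Müller markers was at 0 in Müller glia, none of the 12 rod markers in rods and none of the 10 cone markers in cones. A level is the UMIs of a gene in 1000000 UMIs of its class (CPM), with 95% Poisson intervals in brackets where given. Depth per cell differed most in Müller glia, with medians of 5544, 6693.5, 13603 and 11517.5 UMIs in the rolipram, BC11-38, bleached vehicle and unbleached vehicle libraries. CPM and UMIs per cell can therefore point in different directions there, and a lower share of a class total cannot be told apart from a rise of its other transcripts.

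**Figure D1:**
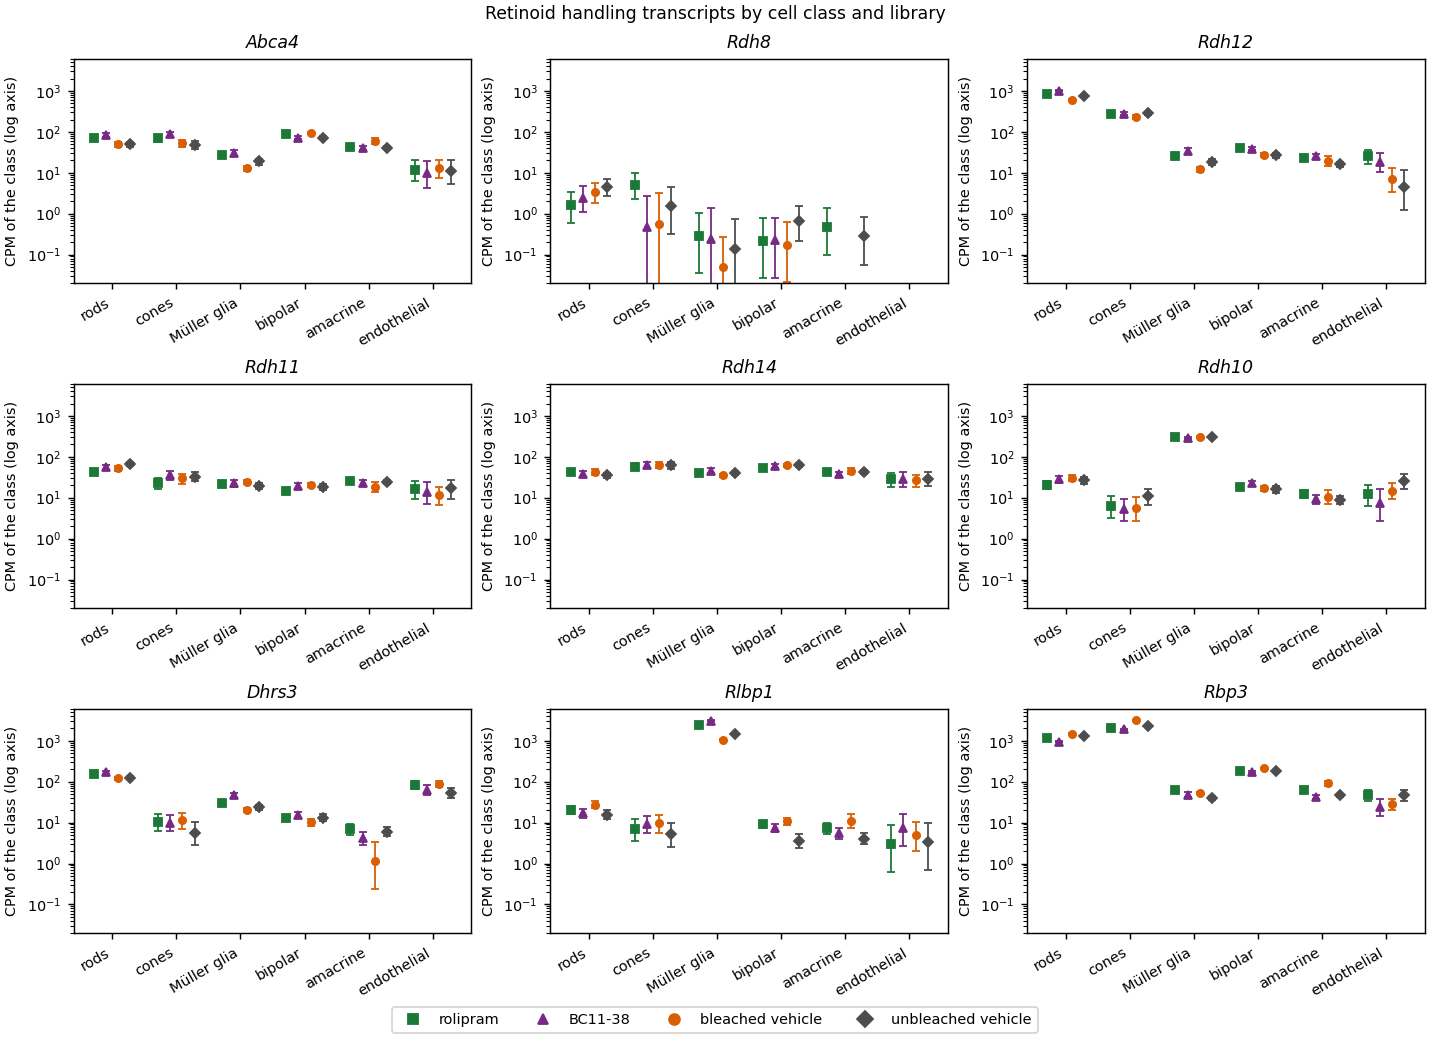
Level of the 9 genes in CPM (log axis) in 6 cell classes and 4 libraries, with 95% Poisson intervals of the counts and sums of 0 UMIs left out. Rlbp1 and Rdh10 were highest in Müller glia, Rdh12 and Dhrs3 in rods, and Rbp3 in cones.

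The 2 deleted genes came first as a check of the labels, and they differed from each other. Rdh8 was nearly absent, with 22 UMIs in the whole rolipram library, 14 in BC11-38, 18 in bleached vehicle and 33 in unbleached vehicle. Rods held 47 of these 87 UMIs, with 6, 9, 13 and 19 in the rolipram, BC11-38, bleached vehicle and unbleached vehicle libraries. Cones held 9, 1, 1 and 3 in the same order. No Rdh8 UMI was seen in 311 endothelial cells, which allows a share of up to 0.965%, and no ratio was drawn from counts this low. Abca4, by contrast, was counted in every class. In rods it stood at 71.3 CPM with rolipram, 81.8 with BC11-38, 49.7 in bleached vehicle and 49.8 in unbleached vehicle. The part of each gene that the alleles remove is not given in the sources used here, and a 3′ tag outside a deleted part checks no genotype, so the Abca4 counts neither bear out nor contradict the label.

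Abca4 was higher in the rods and cones of the BC11-38 library than in those of bleached vehicle. The ratio in rods was 1.65 (1.37 to 1.98) and in cones 1.67 (1.29 to 2.17), from 299 against 191 UMIs and 181 against 91 UMIs. With rolipram the ratios were 1.44 (1.19 to 1.74) in rods and 1.34 (1.01 to 1.78) in cones, under the 1.5-fold set for a call, which rods passed under TMM scaling (1.57). Cones held 69.5 CPM (rolipram), 86.5 (BC11-38), 51.9 (bleached vehicle) and 48.3 (unbleached vehicle). Bleaching itself left a ratio of 1.00 (0.81 to 1.22) in rods and 1.07 (0.80 to 1.45) in cones. Among male cells the BC11-38 ratio was 1.60 in rods and 1.46 in cones, the second under the call. Within rod cluster 2 alone it was 1.47, and when clusters were named against all other cells it was 1.27. That naming gave the values of rods without cluster 0, which held 83.1% of bleached vehicle rods and 1.34% of BC11-38 rods. Bipolar cells, with 71.6 to 92.3 CPM over the 4 libraries, overlapped the range of rods, and amacrine cells held 40.9 to 59.8 and endothelial cells 9.97 to 12.8. With the libraries pooled, bipolar cells held 82.0 CPM (79.1 to 85.0), above rods at 62.6 (58.7 to 66.6) and cones at 64.7 (59.1 to 70.7).

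Rdh12, the dehydrogenase of photoreceptor inner segments, was mainly a rod transcript. Rods held 846 CPM (rolipram), 1009.9 (BC11-38), 598 (bleached vehicle) and 756 (unbleached vehicle), from 3190, 3693, 2300 and 3186 UMIs. The BC11-38 library was highest and bleached vehicle lowest. The 12 rod markers together had the same order in rods, at 55589 CPM (rolipram), 58140 (BC11-38), 41166 (bleached vehicle) and 50448 (unbleached vehicle). BC11-38 over bleached vehicle gave 1.69 (1.60 to 1.78), rolipram over bleached vehicle 1.41 (1.34 to 1.49) and bleached over unbleached vehicle 0.79 (0.75 to 0.83). Under TMM scaling the rolipram ratio was 1.55, past the call, and when clusters were named against all other cells the BC11-38 ratio was 1.46, short of it. The share of rods with an Rdh12 UMI had the same order after thinning, while unthinned the unbleached vehicle share was above that of rolipram. Thinned to 1000 UMIs a cell it was 56.9%, 64.4%, 44.4% and 53.4% in the rolipram, BC11-38, bleached vehicle and unbleached vehicle libraries, after 744, 675, 706 and 704 shallower rods were left out, and unthinned it was 63.4%, 71.2%, 52.9% and 64.8%. Endothelial cells, which should lack the gene, gave 3.19%, 1.43%, 0% and 1.92% at the same depth, where 0 of 93 cells allows up to 3.23%. Median depths before thinning were 1214, 1397, 1349 and 1491.5 UMIs in rods and 8781.5, 9063.5, 11873 and 14354.5 in endothelial cells, both in the order just given.

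Cones had a lower CPM of Rdh12 than rods in each library, with 266 CPM (rolipram), 279.5 (BC11-38), 229 (bleached vehicle) and 284 (unbleached vehicle). Their median depths were greater, at 4568, 6155, 6179 and 7819 UMIs in that order. With the libraries pooled, 70.8% of cones and 62.9% of rods had an Rdh12 UMI, so the ranking is one of CPM and not of single cells. The Rdh12 ratios in cones were 1.16 (1.01 to 1.33) with rolipram, 1.22 (1.07 to 1.39) with BC11-38 and 0.81 (0.71 to 0.92) for bleaching, none past 1.5-fold. All other classes with 50 cells in each library held at most 40.2 CPM. Müller glia held 25.3 CPM (rolipram), 33.4 (BC11-38), 12.1 (bleached vehicle) and 18.6 (unbleached vehicle), and endothelial cells 25.03, 18.7, 7.13 and 4.50 in the same order.

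Rdh11 and Rdh14, broadly expressed dehydrogenases of the short-chain family, differed by less than 1.5-fold in CPM of the class wherever they were counted, though not under every setting. Rdh11 stood at 41.9 CPM (rolipram), 55.8 (BC11-38), 52.8 (bleached vehicle) and 66.7 (unbleached vehicle) in rods, above each other class with 50 cells in every library. With the libraries pooled, however, Rdh11 was seen in 7.62% of rods, which were shallower, and in 18.9% of Müller glia. In rods its ratios were 0.79 (0.64 to 0.98) with rolipram, 1.06 (0.87 to 1.29) with BC11-38 and 0.79 (0.66 to 0.95) for bleaching. Its range over libraries was 19.3 to 24.2 CPM in Müller glia, 22.8 to 35.4 in cones, 18.4 to 26.1 in amacrine and 14.8 to 20.7 in bipolar cells. The cone range lay above that of bipolar cells, and the remaining pairs of these ranges overlapped. Rdh14 stood at 35.1 to 42.4 CPM in rods, 57.0 to 64.5 in cones, 35.2 to 45.5 in Müller glia, 54.2 to 62.9 in bipolar cells and 26.4 to 29.2 in endothelial cells. Cones and bipolar cells overlapped, as did rods and Müller glia, while endothelial cells were below all of these. In Müller glia its ratios were 1.14 (0.99 to 1.31) with rolipram, 1.29 (1.09 to 1.52) with BC11-38 and 0.87 (0.76 to 1.00) for bleaching, and a mean over cells put the BC11-38 value at 1.52, past the call. Rdh11 in Müller glia had a rolipram ratio of 0.90 (0.75 to 1.09), which was 0.65 within Müller cluster 21 and then past the call. On the scale of UMIs per Müller cell both genes were past 1.5-fold lower, Rdh11 at 0.37 with rolipram and 0.44 with BC11-38 and Rdh14 at 0.46 and 0.61.

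Rdh10, a retinol dehydrogenase known for making retinaldehyde on the way to retinoic acid, was mainly a transcript of Müller glia. Müller glia held 300.3 CPM (rolipram), 287 (BC11-38), 309 (bleached vehicle) and 303 (unbleached vehicle), and the 4 levels lay within 1.5-fold of each other. The ratios were 0.97 (0.93 to 1.02) with rolipram, 0.93 (0.87 to 0.99) with BC11-38 and 1.02 (0.97 to 1.07) for bleaching. Rods held 20.7 to 30.2 CPM, bipolar cells 15.9 to 22.3 and cones 5.26 to 10.9. A cluster of 74 astrocyte-like cells, few in each library, held 189.5 (163 to 219) with the libraries pooled and 90.8 to 313 by library. Rgr, a listed pigment epithelium marker, was among the leading genes of that cluster, so these levels may not be those of astrocytes alone. On the scale of UMIs per Müller cell the picture was different, with means of 1.75 (rolipram), 1.95 (BC11-38), 4.45 (bleached vehicle) and 3.83 (unbleached vehicle), or ratios of 0.39 and 0.44 for rolipram and BC11-38 over bleached vehicle. Within Müller cluster 21, the 1 cluster with over 100 cells in each library, Rdh10 stood at 328 CPM (rolipram), 277 (BC11-38), 576 (bleached vehicle) and 508 (unbleached vehicle), and the ratios were 0.57 with rolipram and 0.48 with BC11-38. The near-equal level of Rdh10 therefore held for the class sum and not within that cluster.

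Dhrs3, which reduces all-trans-retinal to retinol and is known as a gene induced by retinoic acid, had its highest CPM in rods among the classes with 50 cells in each library. With the libraries pooled, Dhrs3 was seen in 18.8% of rods, which were shallower, and in 50.5% of endothelial cells. Rods held 151 CPM (rolipram), 171 (BC11-38), 121 (bleached vehicle) and 126 (unbleached vehicle), with ratios of 1.24 (1.097 to 1.41), 1.41 (1.25 to 1.59) and 0.96 (0.85 to 1.09) for rolipram, BC11-38 and bleaching. None was past 1.5-fold, though BC11-38 reached 1.59 under TMM scaling, 1.54 among male cells and 1.51 when clusters were named against all other cells. Cones held 5.72 to 11.4 CPM, so Dhrs3 was lower in cones than in rods in each library. Endothelial cells held 54.0 to 87.0 CPM, and 72 microglia pooled over the libraries held 168 (139 to 201). In Müller glia Dhrs3 stood at 30.8 CPM (rolipram), 47.0 (BC11-38), 20.5 (bleached vehicle) and 23.9 (unbleached vehicle). The ratio was 1.503 (1.27 to 1.78) with rolipram and 2.29 (1.92 to 2.73) with BC11-38. The rolipram value lay at the threshold and lost its call under TMM scaling (1.30), among male cells (1.39) and within cluster 21 (1.15).

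**Figure D2:**
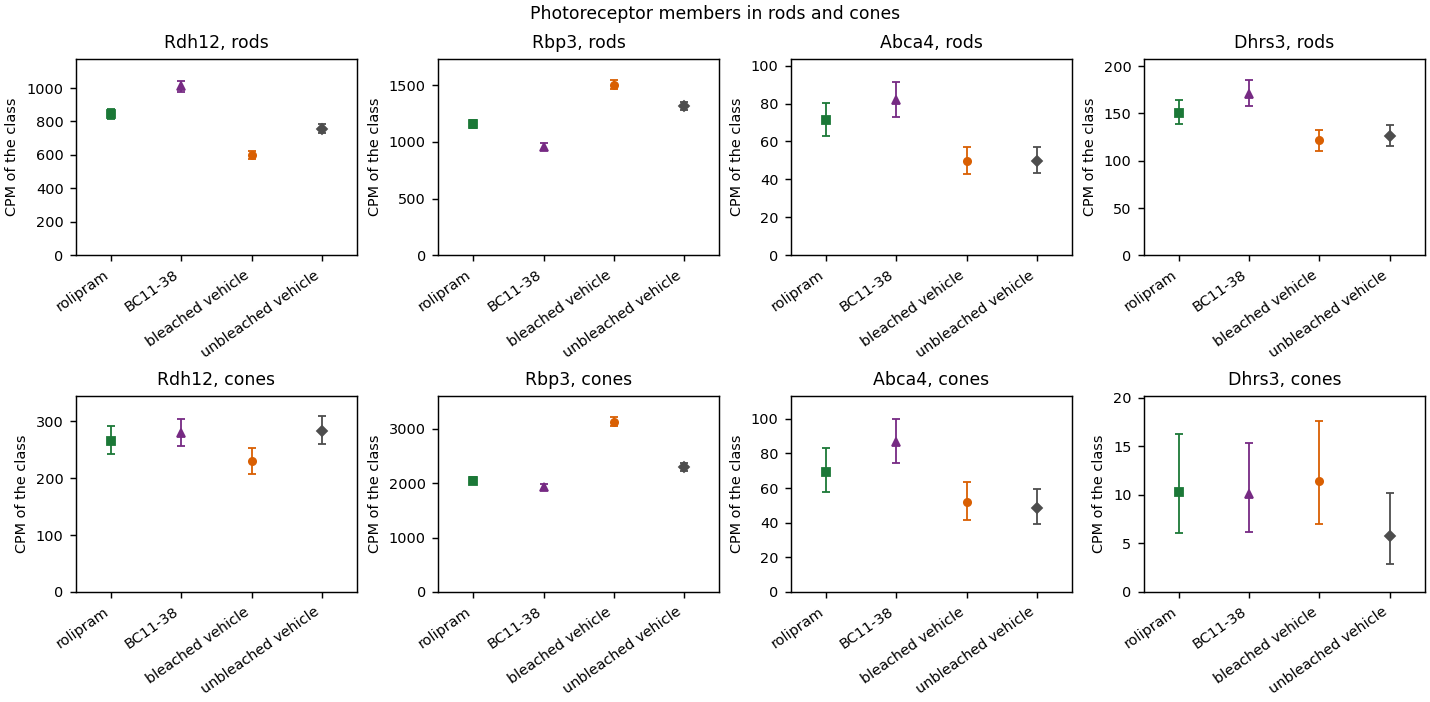
Level of Rdh12, Rbp3, Abca4 and Dhrs3 in CPM in rods (top) and cones (bottom) by library, with 95% Poisson intervals of the counts and axes from 0. In rods Rdh12 was highest with BC11-38 and lowest in bleached vehicle, and Rbp3 had the opposite order of these 2 libraries.

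Rbp3, the retinoid carrier of the matrix around photoreceptors, was highest in bleached vehicle and lowest with BC11-38 in both photoreceptor classes. Rods held 1157 CPM (rolipram), 957 (BC11-38), 1504 (bleached vehicle) and 1320.5 (unbleached vehicle). Cones held 2049.8 CPM (rolipram), 1926 (BC11-38), 3133 (bleached vehicle) and 2302 (unbleached vehicle), above rods in each library. In rods the ratios were 0.77 (0.74 to 0.80) with rolipram, 0.64 (0.61 to 0.66) with BC11-38 and 1.14 (1.097 to 1.18) for bleaching, and only the BC11-38 ratio was past 1.5-fold. In cones they were 0.65 (0.63 to 0.68) with rolipram, 0.61 (0.59 to 0.64) with BC11-38 and 1.36 (1.31 to 1.42) for bleaching, and both drug ratios were past 1.5-fold. On the scale of UMIs per cell the cone ratios were 0.49 with rolipram and 0.60 with BC11-38. Under TMM scaling the rod value with BC11-38 was 0.72 and the cone value with rolipram 0.68, both short of the call, and naming clusters against all other cells gave 0.71 in rods with BC11-38. Bipolar cells held 169 to 213 CPM and no other class with 50 cells in each library held over 90.8.

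Rods fell into clusters of unequal make-up, and Rbp3 and Rdh12 differed between them. Cluster 0 held 14.8% of rods with rolipram, 1.34% with BC11-38, 83.1% in bleached vehicle and 39.0% in unbleached vehicle. Cluster 3 held 42.1%, 48.2%, 0.0402% and 40.6% in that order, and cluster 2 held 41.6%, 49.9%, 16.0% and 19.5%. Within cluster 2, Rbp3 stood at 1114 CPM (rolipram), 950.0 (BC11-38), 1107.5 (bleached vehicle) and 1106 (unbleached vehicle), and the BC11-38 ratio was 0.86. Within cluster 0 it was 1499.5 CPM with rolipram, 1538 in bleached vehicle and 1631 in unbleached vehicle. Rdh12 within cluster 2 stood at 886 CPM (rolipram), 1031 (BC11-38), 737 (bleached vehicle) and 867 (unbleached vehicle), a BC11-38 ratio of 1.40. Neither gene was past 1.5-fold within cluster 2, so for rods these 2 calls hold over the class and not inside that cluster. Cones lay in 2 clusters, and their make-up differed too. Cluster 29 held 48.6% of cones with rolipram, 47.7% with BC11-38, 0% in bleached vehicle and 46.7% in unbleached vehicle, where 0 of 299 cells allows up to 1.003%. All bleached vehicle cones were in cluster 13, so cone ratios over the class set cells of both clusters against cells of cluster 13. Within cluster 13 the cone ratios were 0.64 with rolipram and 0.60 with BC11-38 for Rbp3, and 1.59 with BC11-38 for Abca4, all past the call. Among male cells the cone ratio of Rbp3 with BC11-38 was 0.56.

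**Figure D3:**
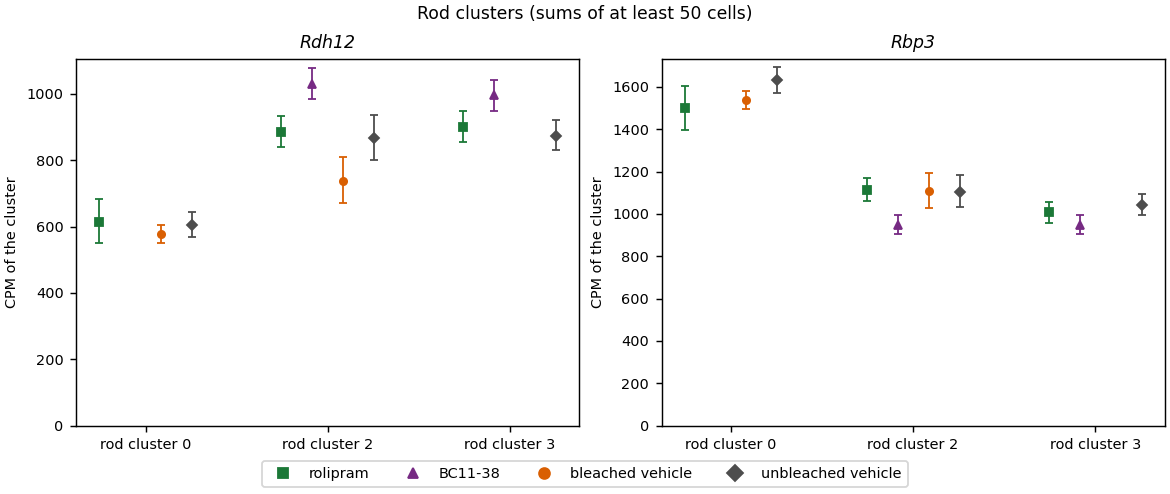
Level of Rdh12 (left) and Rbp3 (right) in CPM within each rod cluster and library, for sums of at least 50 cells, with 95% Poisson intervals of the counts and axes from 0. Cluster 0 had less Rdh12 and more Rbp3 than clusters 2 and 3 in the libraries that could be compared.

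Rlbp1 was mainly a Müller transcript, and its share of the Müller total was larger in both drug libraries than in bleached vehicle. Müller glia held 2411 CPM (rolipram), 3110.2 (BC11-38), 1070.1 (bleached vehicle) and 1464 (unbleached vehicle), from 16773, 12649, 21695 and 10857 UMIs. The ratio was 2.25 (2.21 to 2.30) with rolipram, 2.91 (2.84 to 2.97) with BC11-38 and 0.73 (0.71 to 0.75) for bleaching, the last within 1.5-fold. Per Müller cell, however, the means were 14.1 UMIs (rolipram), 21.1 (BC11-38), 15.4 (bleached vehicle) and 18.5 (unbleached vehicle), so that on this scale the rolipram ratio was reversed, at 0.91, and the BC11-38 ratio was 1.37, under the call. The median over cells, in UMIs per 10000 of the cell, was 23.7 (rolipram), 29.5 (BC11-38), 9.25 (bleached vehicle) and 13.1 (unbleached vehicle). The 12 Müller markers together had the same order in Müller glia, at 32035 CPM (rolipram), 37638 (BC11-38), 16732 (bleached vehicle) and 25172 (unbleached vehicle). The order was therefore not particular to Rlbp1, and the single markers are not given here.

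Thinning gave the Müller libraries 1 depth. At 2000 UMIs a cell, 97.8% of Müller glia with rolipram, 98.8% with BC11-38, 76.8% in bleached vehicle and 89.0% in unbleached vehicle had an Rlbp1 UMI, after 85, 37, 69 and 43 shallower cells were left out. Unthinned shares were 98.3%, 98.5%, 92.9% and 96.9% in that order. Amacrine cells, which should lack the gene, gave 0.631%, 1.29%, 3.61% and 1.18% at the same thinned depth, from median depths of 5517.5, 6422.5, 6409 and 8167.5 UMIs. Within Müller cluster 21, Rlbp1 stood at 2527 CPM (rolipram), 3128 (BC11-38), 1165 (bleached vehicle) and 1218 (unbleached vehicle), with ratios of 2.17 with rolipram and 2.68 with BC11-38. Its UMIs per cell in that cluster were 14.1, 22.0, 11.7 and 13.4 in the same order, so there the direction was the same on both scales. Cluster 11, with a median depth of 18950.5 UMIs a cell, held 8.13%, 0%, 59.8% and 27.8% of Müller glia in the rolipram, BC11-38, bleached vehicle and unbleached vehicle libraries, where 0 of 600 cells allows up to 0.5%. Cluster 33 held 46.4%, 49.3%, 0% and 36.9% in that order, where 0 of 1407 cells allows up to 0.213%.

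**Figure D4:**
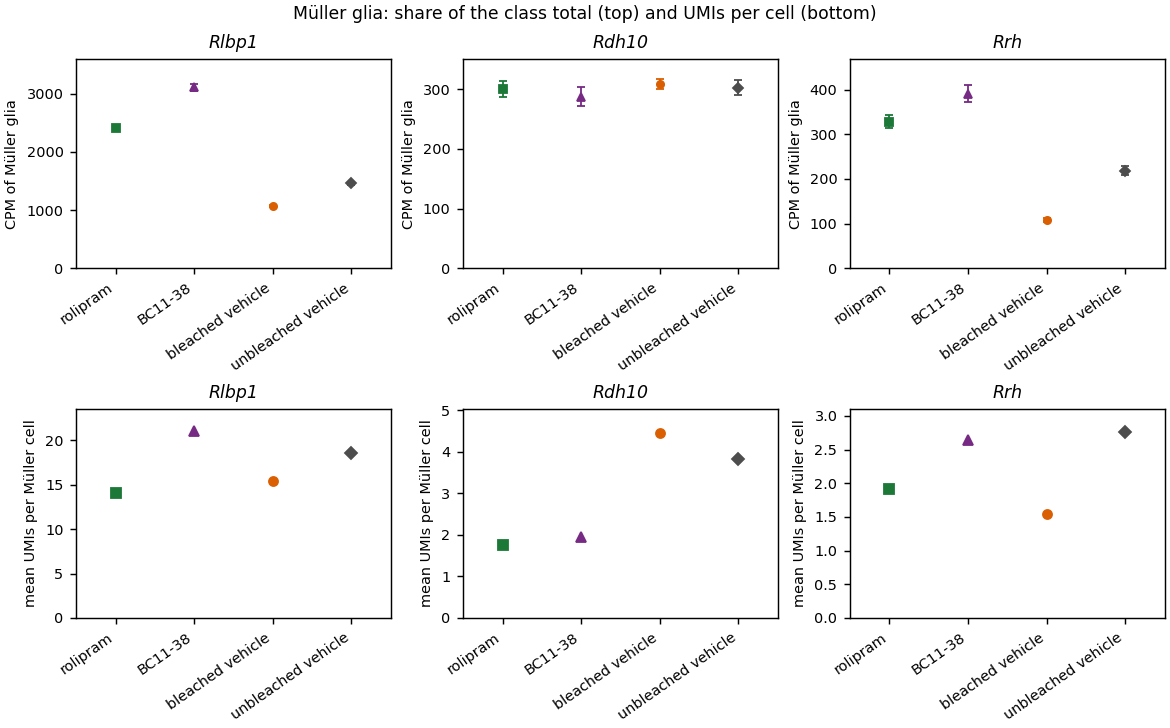
Rlbp1, Rdh10 and Rrh in Müller glia by library, as CPM of the class with 95% Poisson intervals (top) and as mean UMIs per cell (bottom), with axes from 0. Rdh10 had near-equal CPM in the 4 libraries but more UMIs per cell in both vehicle libraries.

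Outside Müller glia, Rlbp1 was highest in a cluster of 74 astrocyte-like cells, at 528 CPM over all libraries and with an Rlbp1 UMI in 83.8% of cells. It was named from 5 of 6 astrocyte markers, and its leading genes were Ttr, Trf, Ptgds, Gfap and Rgr. Rgr is also a listed pigment epithelium marker, and the summed level of that list in this cluster is not given here. These cells held 725 CPM (rolipram), 939.9 (BC11-38), 355 (bleached vehicle) and 354 (unbleached vehicle), from 28, 11, 24 and 11 cells, too few for a ratio here. In rods Rlbp1 was low. Rods held 20.2 CPM (rolipram), 17.2 (BC11-38), 27.6 (bleached vehicle) and 15.7 (unbleached vehicle), from 76, 63, 106 and 66 UMIs. The bleaching ratio was 1.76 (1.28 to 2.43), and the BC11-38 ratio 0.63 (0.45 to 0.86), which was 0.71 under TMM scaling and then short of the call. The summed level of the 12 Müller markers in rods was 275 CPM (rolipram), 290 (BC11-38), 405 (bleached vehicle) and 250 (unbleached vehicle), with none of the 12 at 0. Their part in the rod values of Rlbp1 was not tested. Markers of the pigment epithelium, where RLBP1 is also known, summed to 8.22 CPM (rolipram), 6.56 (BC11-38), 8.84 (bleached vehicle) and 5.93 (unbleached vehicle) in rods, and to 16.8, 12.0, 8.19 and 8.22 in Müller glia, over 8 measured markers. Rpe65, the isomerase that defines that tissue, had 2 UMIs in Müller glia with rolipram and 0 in each other library. Whole libraries held 192 (rolipram), 49 (BC11-38), 173 (bleached vehicle) and 6 (unbleached vehicle) Rpe65 UMIs, and the cells that held them are not given here.

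In Müller glia 4 members were past 1.5-fold with each drug, namely Abca4, Rdh12, Dhrs3 and Rlbp1, all higher than in bleached vehicle. Abca4 stood at 27.2 CPM (rolipram), 30.2 (BC11-38), 12.7 (bleached vehicle) and 18.9 (unbleached vehicle), with ratios of 2.13 (1.76 to 2.59) and 2.38 (1.90 to 2.96). Rdh12 gave 2.09 (1.71 to 2.55) with rolipram and 2.77 (2.23 to 3.43) with BC11-38. On the scale of UMIs per cell, Abca4 had ratios of 0.86 with rolipram and 1.12 with BC11-38, Rdh12 0.85 and 1.30, and Dhrs3 0.61 and 1.08, so the rolipram direction was reversed for all 3 and the BC11-38 calls were lost. Rod markers in Müller glia summed to 2496 CPM (rolipram), 2436 (BC11-38), 1291 (bleached vehicle) and 1462 (unbleached vehicle), with 0 of 12 at 0. These sums were in the same order of drug over vehicle libraries as Abca4 and Rdh12, and their part in those values was not tested. Rbp3 in Müller glia stood at 62.4 CPM (rolipram), 47.9 (BC11-38), 52.0 (bleached vehicle) and 40.8 (unbleached vehicle). Its rolipram ratio was 1.20 (1.07 to 1.34), which was past the call, at 1.52, with cells of high doublet score left out. Per Müller cell the Rbp3 ratios were 0.49 with rolipram and 0.43 with BC11-38, both past the call and lower.

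The members' counts past 1.5-fold are set beside the shares of all counted genes. In Müller glia, 4 of 8 counted members were higher with rolipram and 0 lower, where 21.3% of all genes were higher and 14.7% lower. With BC11-38 they were again 4 higher and 0 lower of 8, against 23.3% and 18.7% of all genes. For bleaching, 1 of 8, Rdh12 at 0.65 (0.53 to 0.81), was lower and 0 higher, against 7.56% lower and 8.20% higher. That call was lost under TMM scaling (0.67), among male cells (0.99) and on the scale of UMIs per cell (0.74). In rods, 0 of 8 members passed with rolipram, where 2.10% of all genes were higher and 8.17% lower. With BC11-38, 2 of 8 were higher and 2 lower, against 3.58% and 13.9%. For bleaching 1 of 8 was higher and 0 lower, against 6.42% and 0.699%. In cones, 1 of 4 counted members was lower with rolipram and 0 higher (7.95% lower and 5.20% higher among all genes). With BC11-38, 1 of 5 was higher and 1 lower (4.22% and 9.72%), and for bleaching 0 of 5 passed in either direction (6.30% higher and 1.62% lower among all genes).

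The median log2 ratio of the members lay near that of all counted genes in rods. It was -0.17 with rolipram, 0.00 with BC11-38 and 0.08 for bleaching, against -0.10, -0.16 and 0.09 for all genes. In cones it was 0.03, 0.25 and 0.05, against -0.04, -0.08 and 0.08. In Müller glia it was 0.42, 0.78 and -0.21, against 0.09, 0.07 and 0.00. TMM scaling, which aligns the bulk of genes, moved all log2 ratios in Müller glia by -0.21 with rolipram and by -0.23 with BC11-38, and in rods by 0.13 and 0.17. The comparisons of rolipram and of BC11-38 share the bleached vehicle library, so they are not independent of each other.

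**Figure D5:**
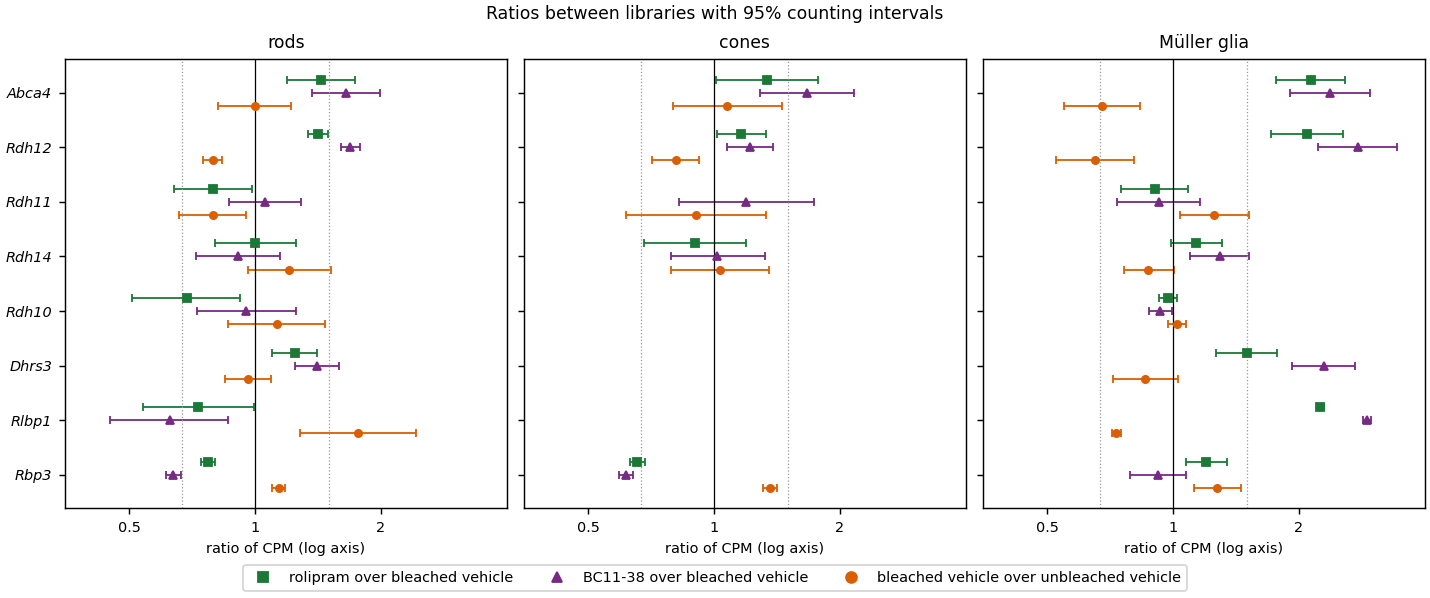
Ratios of CPM (log axis) of 8 genes in rods, cones and Müller glia for rolipram over bleached vehicle, BC11-38 over bleached vehicle and bleached over unbleached vehicle, with 95% counting intervals and dotted lines at 1.5-fold. Genes under 100 UMIs in a comparison are left out. In Müller glia Abca4, Rdh12, Dhrs3 and Rlbp1 lie right of 1.5 or at it with both drugs, while Rdh10 lies near 1.

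Of 52 other listed retinoid genes, 9 were not in the table, and the most were counted in Müller glia. In Müller glia, 9 of 25 were higher and 4 lower with rolipram, 10 of 25 higher and 6 lower with BC11-38, and 6 of 24 higher and 5 lower for bleaching. Among all genes counted there the shares were 21.3% higher and 14.7% lower with rolipram, 23.3% and 18.7% with BC11-38, and 8.20% and 7.56% for bleaching. Aldh1a3, which makes retinoic acid, held 14 UMIs (rolipram), 4 (BC11-38), 248 (bleached vehicle) and 26 (unbleached vehicle), and its bleaching ratio was 3.49 (2.33 to 5.45). Its drug ratios were 0.16 (0.09 to 0.28) with rolipram and 0.08 (0.02 to 0.21) with BC11-38. Akr1b3, an aldo-keto reductase, was lower with both drugs, at 0.35 (0.27 to 0.46) with rolipram and 0.31 (0.21 to 0.44) with BC11-38. Cyp26a1, which breaks down retinoic acid, was higher for bleaching at 2.05 (1.71 to 2.47).

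Other glial genes of the list had the reverse order of libraries. Rrh, the opsin-like peropsin, stood at 328 CPM (rolipram), 390.5 (BC11-38), 107 (bleached vehicle) and 218 (unbleached vehicle), with ratios of 3.06 (2.88 to 3.25) with rolipram and 0.49 (0.46 to 0.52) for bleaching. Its BC11-38 ratio of 3.64 (3.41 to 3.88) was outside the naming rule and is given because the other ratios were. Per cell Rrh held 1.91, 2.65, 1.55 and 2.76 UMIs in that order, and the direction of the drug ratios was the same on this scale. Aldh1a7 was lower for bleaching at 0.33 (0.26 to 0.42) and higher with BC11-38 at 4.63 (3.61 to 5.92). Cyp26b1 was higher with rolipram at 3.79 (2.74 to 5.25), and Lrp2, an uptake receptor, with BC11-38 at 3.96 (3.05 to 5.13). Opn1sw, the short-wave cone opsin, was counted in Müller glia too, at 11.9 CPM (rolipram), 25.6 (BC11-38), 3.35 (bleached vehicle) and 8.49 (unbleached vehicle). Its ratios there were 3.56 (2.55 to 4.98) with rolipram, 7.62 (5.56 to 10.5) with BC11-38 and 0.39 (0.28 to 0.57) for bleaching. In cones themselves Opn1sw held 9402, 10173, 4245 and 7391 CPM in that order. The 10 cone markers together, Opn1sw among them, summed in Müller glia to 100.5 CPM (rolipram), 117 (BC11-38), 106 (bleached vehicle) and 69.7 (unbleached vehicle). That sum was higher in bleached than in unbleached vehicle, where Opn1sw was lower, and none of the 10 was at 0. Over whole libraries Opn1sw held 543 CPM (rolipram), 755 (BC11-38), 174 (bleached vehicle) and 415 (unbleached vehicle), the same order as in Müller glia. Gnb3, which is in the sum and which ON bipolar cells also make, held 669, 615, 823 and 585 CPM there. The single markers within Müller glia are not given here. The part of free RNA in the glial counts was not tested.

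In rods 2 of 14 listed genes were higher and 2 lower with rolipram, 4 of 15 higher and 5 lower with BC11-38, and 3 of 14 higher and 0 lower for bleaching. All genes counted in rods gave 2.10% higher and 8.17% lower with rolipram, 3.58% and 13.9% with BC11-38, and 6.42% and 0.699% for bleaching. Akr1b3 in rods was 0.63 (0.45 to 0.87) with rolipram, 0.48 (0.33 to 0.68) with BC11-38 and 1.56 (1.15 to 2.14) for bleaching. Rdh13, a mitochondrial member of the dehydrogenase family, was 1.62 (1.13 to 2.35) for bleaching in rods, and Rara, a retinoic acid receptor, was 0.61 (0.48 to 0.76) with BC11-38. The cone opsins counted in rods were higher with BC11-38, Opn1mw at 4.44 (2.90 to 7.03) and Opn1sw at 2.31 (1.75 to 3.08), and Opn1sw was 2.00 (1.503 to 2.68) with rolipram. The 10 cone markers together, both opsins among them, had the other order in rods, with 584 CPM (rolipram), 369 (BC11-38), 1223 (bleached vehicle) and 764 (unbleached vehicle). Most of that sum in bleached vehicle was Gnb3, a G protein subunit of cones that ON bipolar cells also make, at 321 CPM (rolipram), 87.5 (BC11-38), 1039 (bleached vehicle) and 607 (unbleached vehicle). None of the 10 markers was at 0, and their part in the opsin values was not tested.

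In cones 4 of 10 listed genes were higher and 2 lower with rolipram, 2 of 10 higher and 1 lower with BC11-38, and 1 of 11 higher and 2 lower for bleaching. For all genes counted in cones these shares were 5.20% higher and 7.95% lower with rolipram, 4.22% and 9.72% with BC11-38, and 6.30% and 1.62% for bleaching. Opn1sw was 0.57 (0.56 to 0.59) and Opn1mw, the medium-wave opsin, 0.57 (0.55 to 0.59) for bleaching. With rolipram they were 2.21 (2.16 to 2.28) and 2.29 (2.21 to 2.38), and with BC11-38 2.40 (2.33 to 2.46) and 2.14 (2.06 to 2.22). Rbp4, the serum retinol carrier, held 12.0 CPM (rolipram), 6.69 (BC11-38), 71.3 (bleached vehicle) and 8.84 (unbleached vehicle) in cones, from 21, 14, 125 and 17 UMIs, and only bleached vehicle was high. Its ratios were 0.17 (0.10 to 0.27) with rolipram, 0.09 (0.05 to 0.16) with BC11-38 and 8.08 (4.85 to 14.3) for bleaching. With rolipram, Degs1 was also higher, at 1.58 (1.07 to 2.34), and Akr1b3 lower, at 0.63 (0.44 to 0.89).

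The genes whose level over the 24 sums of 6 classes by 4 libraries was most like that of a member are given as a description, since sums of 1 class share their cell type. Pearson's r of log2(CPM + 1) was used, over genes with at least 500 UMIs. Rdh12 was most like Nxnl2 (0.99), followed by Kcnv2 and Grk1, and Rbp3 most like A930003A15Rik (0.99), followed by Jchain and Cdhr1. Rlbp1 was most like D630033O11Rik (0.99), followed by Bdh2 and Kcnj10, and Rdh10 like Itgb8 (0.95), Mlc1 and Abca8a. Abca4 was most like AI480526 (0.95), Gal3st3 and A530058N18Rik. Rdh14 was most like Hr (0.96), Sptb and Macrod1, Rdh11 like Ift74 (0.93), 1700030J22Rik and Cwc27, and Dhrs3 like Hadhb (0.93), Wnk1 and Stk17b. Rdh8 had too few UMIs for this measure.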

How the data were processed

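Single-cell RNA-seq of dissociated retina was available as 1 matrix of 4 libraries with 10x v3 chemistry and 15000 cells loaded each, per the labels' protocols. Cell Ranger 6.0.1, Seurat 3.2.2 and mm10 are named without roles, per the submitters' processing notes. For filters and strand, the sources used here give nothing. A further group in the series text was not analysed here. Per the file headers, the deposited matrix is on a natural log scale: each value is ln(1 + x), with x the UMIs of a gene scaled to 10000 per cell. The design assumed they could be turned back into UMIs, and 100% of back-transformed values came within 0.001 of whole numbers, for a total of 140410160 UMIs.

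Cells were clustered with scanpy 1.11.5 in Python 3.11.15 (2000 variable genes, 30 components, 15 neighbours, Leiden resolution 1, 40 clusters). Clusters were named by the marker list detected most completely, in proportion to its length and not by marker number, with at least 3 markers needed. A marker was detected when seen in 15% of cells and at 2-fold or more against the median over the remaining clusters. Scrublet called 18, 0, 2 and 1 doublets in the rolipram, BC11-38, bleached vehicle and unbleached vehicle libraries, against 6.32%, 4.91%, 5.45% and 4.56% of cells expected, so the caller has not worked and most doublets remain. UMIs were summed per class and library, divided by the class total, and compared with exact Poisson 95% intervals, which cover counting error only. A gene was counted with 100 UMIs over both libraries and called at 1.5-fold. Classes needed 50 cells per library, and horizontal cells, with a mixed cluster, were not compared. A share of 0 is limited by 3 counts. Code was tested on simulated data.

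All 9 members were named in every comparison where they were counted, and of the listed retinoid genes up to 3 in each direction by ratio, with some listed genes not reported here. The members and lists were chosen with earlier results of these data known. Alternatives were other scalings, count minimums, doublet and cluster settings, cells of 1 sex, 1 cluster per class, UMIs per cell, and cells without shared barcodes. The last 3 of these were chosen after seeing the data, as was thinning to 1000 UMIs.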

Additional observations from a re-analysis of the deposited data

How the results depend on the processing

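No paired analysis was possible because each group had 1 library, and for the same reason no library could be left out. No count of genes or members moved by over 1.5 times under Leiden resolution 0.5 or other doublet rules. The same held with retinoid genes kept for clustering and with cells of shared barcodes left out. At resolution 0.5, however, no member's ratio changed at all, so that setting repeated the main one and checks nothing. Keeping called doublets returned only 18, 0, 2 and 1 cells in the rolipram, BC11-38, bleached vehicle and unbleached vehicle libraries, so it checks little. No shallow cluster had been left unnamed, so adding shallow rod-marker clusters repeated the main setting and checks nothing. The cause of the differences below was not tested, except for the following. Count minimums and single clusters change how many genes are counted, and naming against all other cells leaves most bleached vehicle rods out. Values are in the order bleaching, rolipram, BC11-38 unless named. Genes past 1.5-fold numbered 611, 875 and 1462 in rods, 426, 698 and 769 in cones, and 1760, 4061 and 4651 in Müller glia. With a minimum of 20 UMIs they were 1719, 2000 and 2868 in rods, 1658, 2023 and 2136 in cones, and 2989 in Müller glia for bleaching, and cones had 3 members for bleaching. With 400 UMIs they were 148, 301 and 518 in rods, 88, 178 and 197 in cones, and 982, 2549 and 2900 in Müller glia. Members were then 0 for bleaching in rods and in Müller glia, 1 in cones and 2 in Müller glia with BC11-38. Naming against all other cells gave 364, 419 and 692 genes in rods, with 0 members for bleaching and 1 with BC11-38. That member was Dhrs3, which the main setting did not call. Rod cluster 0 was then left out, so this setting is not separate from the cluster make-up of rods. Male cells alone gave 365 genes in rods and 209 in cones for bleaching, and 0 members in rods and Müller glia for bleaching and 1 in cones with BC11-38. Within 1 cluster per class, genes were 111, 219 and 394 in rods, 252 in cones for bleaching, and 353, 798 and 1094 in Müller glia, and members 0 in rods for bleaching and BC11-38 and 0 in Müller glia for bleaching. UMIs per cell without scaling gave 732 and 1827 genes in cones for bleaching and rolipram, and 9605 and 8408 in Müller glia with rolipram and BC11-38. On that scale members were 1 in rods with rolipram, 1 in cones and 0 in Müller glia for bleaching. There the log2 ratios with rolipram in Müller glia reversed to -0.21 for Abca4, -0.24 for Rdh12, -0.72 for Dhrs3 and -0.13 for Rlbp1. TMM scaling gave 2 members in rods and 0 in cones with rolipram, and 0 in Müller glia for bleaching. A mean over cells gave 1 member in rods with rolipram and 2 in Müller glia for bleaching. Depth limits Rdh8, with 87 UMIs in all, and in cones 4 of 9 members, or 5 with rolipram, under the count minimum.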
